A study of Mus musculus with 6 samples.

Results

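This account covers 43 genes of the centromere, the kinetochore and the spindle assembly checkpoint, measured by RNA-seq in mouse lung fibroblasts in which the transcription factor Wt1 was knocked down. The genes were taken from a list of symbols, and all 43 matched 1 row each among the 24061 rows of the counts table by their current symbol. The cells were resident fibroblasts from the fibrotic lungs of mice with a TGF-alpha transgene, kept in culture. One group of 3 libraries (numbered 1 to 3) came from cells given a stealth control siRNA and the other group of 3 (numbered 4 to 6) from cells given a stealth siRNA against Wt1. Both groups carried the transgene, so no comparison with non-transgenic cells was made. The sources used here do not give the promoter of the transgene, the ages and numbers of the mice, the siRNA sequences or how long after transfection the cells were harvested. No label says that libraries of the same group are separate cultures or animals, and p-values here cover just the spread among these 6 samples, possibly a technical one.

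The centromere is the stretch of each chromosome that carries nucleosomes with the histone variant CENP-A. On it the constitutive centromere-associated network (CCAN) forms the inner kinetochore, and the KNL1, MIS12 and NDC80 complexes (together the KMN network) form the outer kinetochore that holds spindle microtubules. Kinetochores that are not yet attached gather the checkpoint proteins, which hold back the anaphase-promoting complex until every chromosome is attached. Many of these genes are transcribed most in G2 and mitosis, while others, such as subunits with duties outside mitosis, are transcribed more evenly through the cycle.

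The libraries held 26141921 to 32085698 counts. Levels are given as CPM, counts per 1000000 counts of the tested genes after scaling with TMM factors, where 3 counts in 1 library were worth 0.0926 to 0.113 CPM. Values are listed in the order control 1, 2 and 3, then Wt1 siRNA 4, 5 and 6. The targeted gene, Wt1, had 48.8, 55.7 and 51.5 CPM in the controls and 11.4, 8.63 and 7.92 CPM after Wt1 siRNA, and the log2 fold change was -2.48 ± 0.16 (SE) with an adjusted p of 5.98e-06. Here and below the adjusted p is that of the quasi-likelihood test of edgeR with Benjamini-Hochberg adjustment over 14190 tested genes, with 3 libraries per group and a threshold of 0.05. The summed level of 10 fibroblast markers was 28750 to 40195 CPM in the controls and 41284 to 48565 CPM after Wt1 siRNA, with 5 higher and 2 lower. Col1a1 (means of 7982 and 17421 CPM) and Col1a2 (5793 and 9655 CPM) rose by the most CPM. The 2 lower were Col3a1 (7430 and 5391 CPM) and Pdgfra (1181 and 523 CPM). The summed macrophage markers had 42.3 to 52.2 and 34.0 to 39.1 CPM. Cd14 (means of 18.7 and 8.41 CPM) was the 1 lower of the 7 tested. The epithelial markers had 47.2 to 64.2 and 40.3 to 46.6 CPM (1 of 5 tested lower), and the endothelial markers 100 to 124 and 81.7 to 101 CPM (1 of 7 lower). Scgb1a1 was at 0 in all 6 libraries, Adgre1 at 0 in the controls, and Sftpc and Sftpb at 0 after Wt1 siRNA. The mesothelial markers, Wt1 among them, summed to 227 to 280 and 144 to 187 CPM (4 of 7 lower, 2 higher; Muc16 was not analysed here), and the pericyte and smooth muscle markers to 325 to 387 and 286 to 357 CPM (0 of 8 called). The part of these differences in the results below was not tested.

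After Wt1 siRNA the level of most kinetochore and checkpoint genes was lower. All 43 members passed the filter on low counts, 24 of them fell, 1 rose (Zwint) and 18 did not pass the test. Of all genes tested 10.3% were called lower and 9.05% higher. The median log2 fold change was -0.92 over the 43 members and 0.00 over all tested genes. Among the 24 that fell the log2 fold changes ran from -1.61 (Cenph) to -0.84 (Nsl1) with a median of -1.14, and 19 were lower by at least 2-fold, while 3.20% of all tested genes were called lower with at least that fold. Every Wt1 siRNA library was below every control in 31 of the 43 members against 18.3% of all tested genes. The summed level of all 43 had means of 973 ± 116 CPM in the controls and 678 ± 34.2 CPM after Wt1 siRNA (SD, n = 3), 1.43-fold apart. Zwint, the member that rose, makes up a large part of this sum. With Zwint left out, the summed level of the other 42 was 795, 711 and 905 CPM in the controls and 431, 430 and 507 CPM after Wt1 siRNA. The means of these 42 were 804 ± 97.6 and 456 ± 44.0, 1.76-fold apart. In bulk RNA a smaller number of dividing cells and less of these RNAs per cell cannot be told apart. When libraries were scaled by their size alone, the calls over all genes shifted from 1284 higher and 1459 lower to 855 higher and 1829 lower, while the members' counts became 26 lower and 0 higher.

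**Figure D1:**
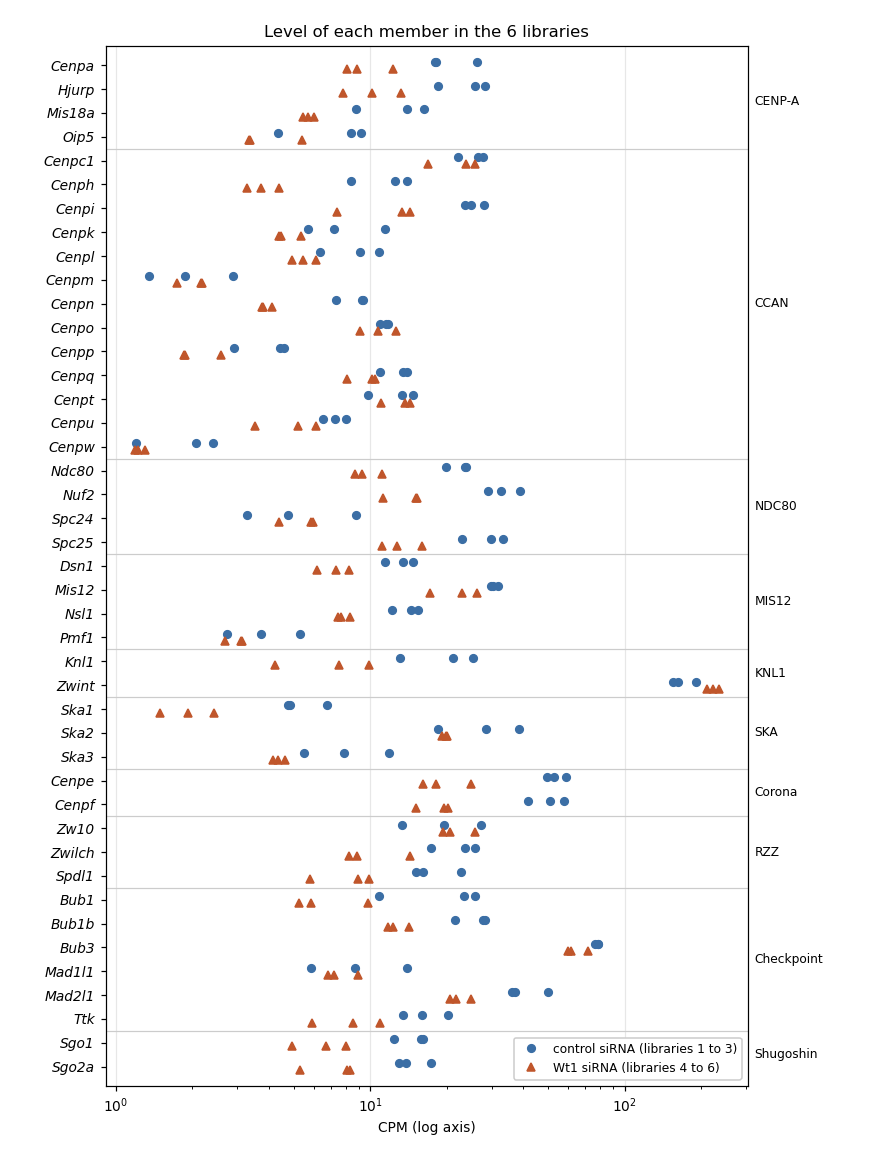
Level of each of the 43 members in CPM (log axis) in the 3 control siRNA libraries (circles) and the 3 Wt1 siRNA libraries (triangles), grouped by role. The symbols separate completely for all 24 members that fell, from Cenph at 8.40 to 14.0 against 3.27 to 4.38 CPM to Cenpe at 49.6 to 58.7 against 16.1 to 24.8 CPM, while Zwint lies at the far right with the Wt1 siRNA libraries higher.

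The 18 members that did not pass had log2 fold changes of -0.92 to 0.13 with a median of -0.41. Of these, 16 had a negative estimate and 7 had groups that did not overlap, all lower after Wt1 siRNA. Of all tested genes 49.6% had a negative estimate, and 18.3% had groups apart with Wt1 siRNA lower. Their standard errors reached 0.47 on the log2 scale, against 0.32 at most in the members that fell. Across the 43 members the Spearman correlation of the standard error with the control level was -0.82, a description over genes that share the same 6 libraries. The size of the change did not follow the level in the same way, with a correlation of -0.10 between the control level per kilobase of exons and the log2 fold change.

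**Figure D2:**
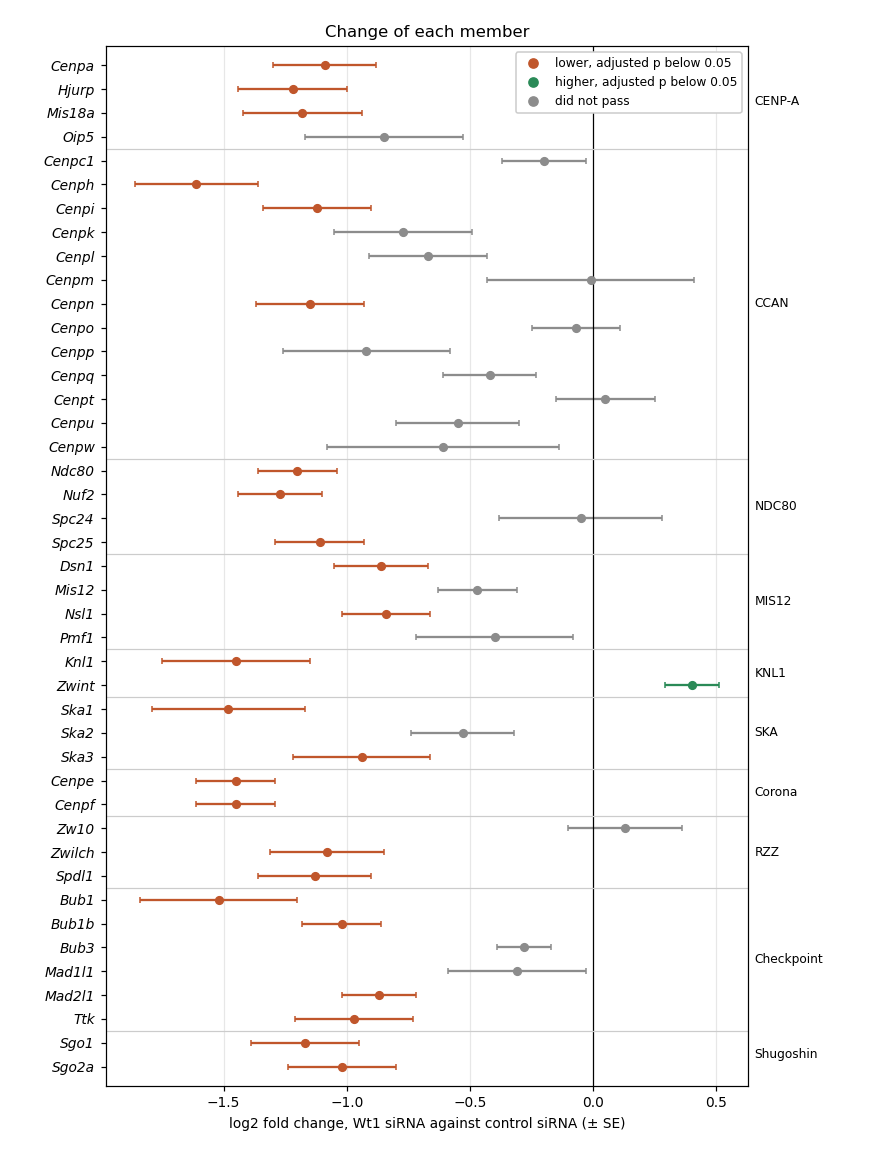
Log2 fold change (Wt1 siRNA against control siRNA, n = 3 libraries each) of the 43 members by role, with bars of 1 standard error on each side. Members that fell lie between -1.61 and -0.84, Zwint at 0.40 is the member that rose, and 18 members in grey did not pass.

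The start regions of these genes are shown first because of a known element of genes transcribed in G2 and mitosis, the cell cycle genes homology region (CHR, letters TTTGAA). It sat in the 50 bases after the annotated start in several members that fell, spread there over positions 2 to 46. Promoters (250 bases before and 50 after the annotated start, RefSeq on GRCm38.p6) were at hand for 39 of the 43 members, with 44 starts in all, and none was used for Nsl1, Ska1, Spc24 and Zwilch. TTTGAA on either strand was in 18 of the 44 promoters (40.9%), in 17.9% of all 32851 promoters and in 12.3% of those of tested genes. In the 50 bases after the start alone, a window chosen after the positions were seen, it was in 10 of 44 (22.7%) against 2.2% of all promoters and 1.5% of those of tested genes. Of those 10, 9 belonged to the 22 promoters of members that fell (40.9%) and 1, that of Oip5, to the 22 promoters of the other members (4.5%). In the 250 bases before the start it was in 8 of the 44 (18.2%), against 16.0% of all promoters and 11.0% of those of tested genes, and there the split was the other way, 2 of 22 (9.1%) for members that fell and 6 of 22 (27.3%) for the others. Over the whole promoter it was in 11 of the 22 promoters of members that fell and 7 of the 22 others. These counts are of annotated starts and not of genes, so a gene with several starts can enter more than once. The match of Bub3, among the others, is the same site counted from different starts (-43 to -38 and -167 to -162). The 10 sites after the start follow as 30 bases each, written 5′ to 3′ along the gene, with the match in capitals (TTCAAA is the same element on the other strand).
Cenpa, chr5:30666890-30666919, plus strand: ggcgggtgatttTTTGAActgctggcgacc
Hjurp, chr1:88277543-88277572, minus strand: tgcgtaaatactTTTGAAagaccctattag
Ndc80, chr17:71526811-71526840, minus strand: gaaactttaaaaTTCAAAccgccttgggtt
Spc25, chr2:69206172-69206201, minus strand: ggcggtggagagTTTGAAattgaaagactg
Knl1, chr2:119047138-119047167, plus strand: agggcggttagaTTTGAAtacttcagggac
Cenpf, chr1:189688066-189688095, minus strand: gcggcgggcagTTTGAAtcgctcgtgctgg
Spdl1, chr11:34833622-34833651, minus strand: cgggaaccgtaTTCAAAaatccccggcgct
Bub1b, chr2:118598231-118598260, plus strand: ctgcgtcaagagacgttaaaTTTGAAactt
Ttk, chr9:83834685-83834714, plus strand: agcggggaaatTTCAAAcgtgtttccggag
Oip5, chr2:119618456-119618485, minus strand: aagaggcgcgcgcTTCAAAgaaatatggcg

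The CCAAT box, the letters bound by the factor NF-Y, was in 31 of the 44 promoters (70.5%) against 37.4% of all promoters. It was in 15 of the 22 promoters of members that fell (68.2%) and in 16 of the 22 of the others (72.7%). The others include several starts each of Bub3 and Cenpk, and the boxes of Bub3 are the same ones counted from different starts. The next 6 stretches show boxes before the start in 3 members that fell (Ttk, Cenpf, Spc25), 2 that did not pass (Mis12, Ska2) and the 1 that rose (Zwint), with CCAAT and, where it is present, the CHR in capitals.
Ttk, chr9:83834619-83834703, plus strand: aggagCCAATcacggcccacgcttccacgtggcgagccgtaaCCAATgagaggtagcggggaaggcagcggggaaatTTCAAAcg
Cenpf, chr1:189688077-189688166, minus strand: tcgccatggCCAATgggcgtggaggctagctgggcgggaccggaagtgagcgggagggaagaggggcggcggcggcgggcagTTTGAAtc
Spc25, chr2:69206214-69206273, minus strand: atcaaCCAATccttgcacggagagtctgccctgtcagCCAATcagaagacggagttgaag
Mis12, chr11:71019516-71019565, plus strand: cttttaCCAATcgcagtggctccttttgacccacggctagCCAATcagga
Ska2, chr11:87109126-87109205, plus strand: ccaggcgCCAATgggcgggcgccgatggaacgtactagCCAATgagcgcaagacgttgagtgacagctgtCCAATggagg
Zwint, chr10:72654801-72654845, plus strand: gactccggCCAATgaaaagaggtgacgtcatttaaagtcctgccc

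Related letters were less frequent. The CHR variant TTTAAA was in 8 of the 44 promoters (18.2%) against 13.2% of all promoters, and the variant TTCGAA in 5 (11.4%) against 1.6%. Sites of the E2F form, searched as TTTGGCGC, TTTCCCGC, TTTGCCGC and TTTCGCGC, were in 4 (9.1%) against 2.3%, in Cenpl, Cenpm, Dsn1 and Mis18a. The letters bound by WT1 and EGR proteins, searched as GCGTGGGNG and GCGGGGGNG, were in 2 (4.5%), those of Cenpe and Cenpp, against 7.8% of all promoters and 12.6% of those of tested genes. All motifs were searched on both strands, and the only matches of 2 motifs that overlapped were a CCAAT and a CHR in Cenpw, which share a base at position -25. A match is a run of letters, and not a measured binding site, and a missing match says only that the letters are not in the window.

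**Figure D3:**
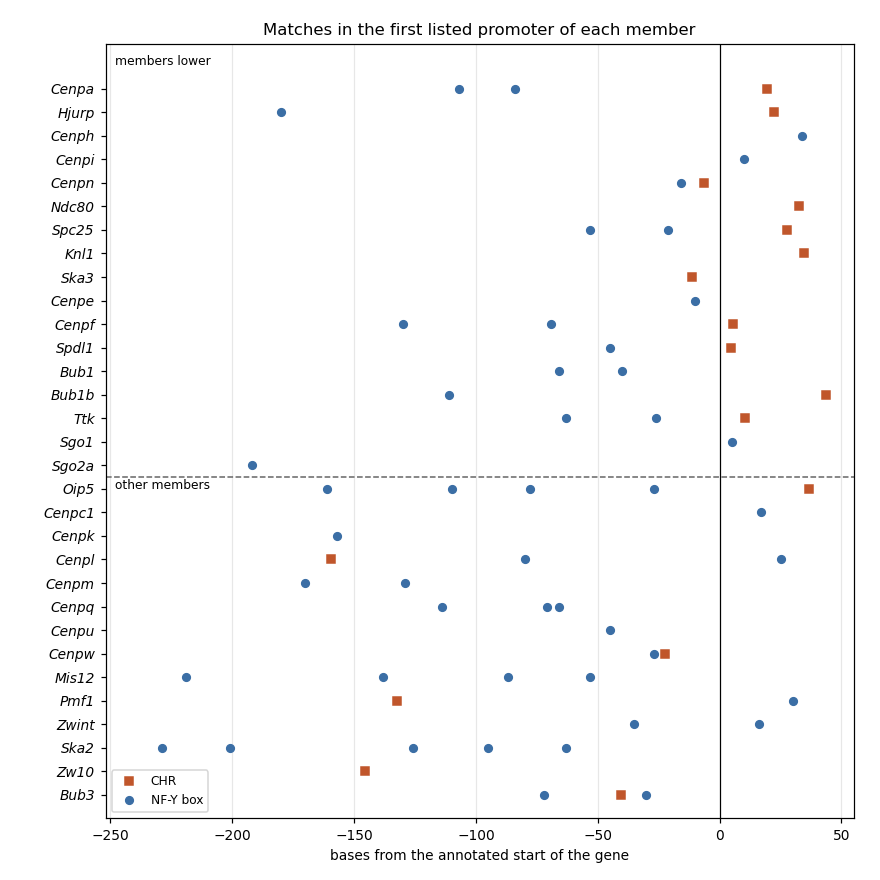
Positions of CHR matches (TTTGAA, squares) and CCAAT matches (NF-Y boxes, circles) in bases from the annotated start, in the first listed promoter of each member that has either, with members that fell above the dashed line and the other members below it. Among the members drawn, 9 of those that fell have a CHR in the 50 bases after the start, and Oip5 is the member below the line that has one there.

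Of the 4 genes for CENP-A and the factors that load it, 3 fell. Cenpa, which encodes the centromeric histone itself (gene ID 12615, chromosome 5, 30666877 to 30674837 in GRCm38), had 17.9, 18.1 and 26.3 CPM in the controls and 8.11, 8.88 and 12.3 CPM after Wt1 siRNA. The groups did not overlap, and the level fell 2.12-fold (log2 fold change -1.09 ± 0.21, adjusted p = 0.00404). Hjurp, the chaperone that places CENP-A on the centromere (gene ID 381280, chromosome 1, 88258856 to 88277644), had 28.3, 18.5 and 25.8 CPM in the controls and 10.2, 7.83 and 13.2 CPM after Wt1 siRNA, with all 3 controls above all 3 knockdown libraries. The log2 fold change of Hjurp was -1.22 ± 0.22 (adjusted p = 0.00236), and the ratio of Hjurp to Cenpa overlapped between the groups. Mis18a, a subunit of the MIS18 complex that licenses the loading, fell 2.27-fold (adjusted p = 0.00467), from 13.0 ± 3.86 to 5.72 ± 0.272 CPM. Oip5, the other MIS18 subunit (MIS18-beta), had 8.37, 4.33 and 9.17 CPM in the controls and 3.35, 3.37 and 5.41 CPM after Wt1 siRNA. Control 2 lay within the Wt1 siRNA range, and Oip5 did not pass (log2 fold change -0.85 ± 0.32, adjusted p = 0.0842). Without control 2 the adjusted p was 0.0166 and without Wt1 library 6 it was 0.0470, but without any other library it was 0.216 to 0.277. Exons of Oip5 share 15.9% of their bases with Nusap1 on the other strand, so reads of the 2 genes may be mixed where the counting ignored strand, a setting that the sources used here do not give.

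The inner kinetochore was uneven, with 3 of its 13 members lower, 0 higher and 10 that did not pass. Cenph, a subunit of the CENP-H, -I and -K group (gene ID 26886, chromosome 13, 100759674 to 100775903), had 8.40, 12.5 and 14.0 CPM in the controls and 3.27, 3.73 and 4.38 CPM after Wt1 siRNA. This was a 3.06-fold fall without overlap (log2 fold change -1.61 ± 0.25, adjusted p = 9.53e-04). Its partner Cenpi fell 2.18-fold, from 25.5 ± 2.31 to 11.7 ± 3.77 CPM (adjusted p = 0.00399). The third partner, Cenpk, had 5.71, 7.18 and 11.4 CPM in the controls and 4.46, 5.36 and 4.38 CPM after Wt1 siRNA. Its groups did not overlap but it did not pass (log2 fold change -0.77 ± 0.28, adjusted p = 0.0695). It passed at 0.0452 with library size scaling, 0.0472 with DESeq2, 0.0496 without the filter on low counts and 0.0384 without control 1. Its adjusted p was 0.116 with limma-voom and 0.0718 to 0.307 without any other library. Cenpn, which reads the CENP-A nucleosome, had 7.35, 9.26 and 9.36 CPM in the controls and 4.13, 3.81 and 3.76 CPM after Wt1 siRNA. The groups were apart and the level fell 2.22-fold (log2 fold change -1.15 ± 0.22, adjusted p = 0.00368). Cenpl, the subunit that pairs with Cenpn, had 9.11, 6.33 and 10.8 CPM in the controls and 6.10, 4.93 and 5.45 CPM after Wt1 siRNA, without overlap but short of the threshold (log2 fold change -0.67 ± 0.24, adjusted p = 0.0712). Without control 2 the adjusted p of Cenpl was 0.0203, and without any other library it was 0.127 to 0.253.

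The subunits of the CENP-O, -P, -Q and -U group did not pass. Cenpo had 10.9, 11.5 and 11.7 CPM in the controls and 12.6, 10.7 and 9.11 CPM after Wt1 siRNA, and the groups overlapped (log2 fold change -0.07 ± 0.18, adjusted p = 0.832). Cenpp had 4.60, 2.92 and 4.44 CPM in the controls and 2.60, 1.85 and 1.88 CPM after Wt1 siRNA, with no overlap (log2 fold change -0.92 ± 0.34, adjusted p = 0.0783). The adjusted p of Cenpp was 0.0432 without control 2 and 0.103 to 0.212 without any other library. Cenpq had 10.9, 13.9 and 13.5 CPM in the controls and 10.2, 8.08 and 10.4 CPM after Wt1 siRNA, again with every control above every knockdown library (log2 fold change -0.42 ± 0.19, adjusted p = 0.147). Cenpu, which docks the kinase Plk1 at the kinetochore, had 7.29, 6.55 and 8.01 CPM in the controls and 3.53, 5.22 and 6.10 CPM after Wt1 siRNA. Its groups did not overlap either, and its log2 fold change was -0.55 ± 0.25 (adjusted p = 0.151). Exons on the other strand cover 36.5% of Cenpu (Primpol), 27.5% of Cenpp (Ippk) and 24.3% of Cenpo (Adcy3). These 3 neighbours had log2 fold changes of -0.25, 0.38 and 0.30 and did not pass, and the part of their reads in the members' counts was not tested.

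The remaining CCAN members also stayed short of the threshold. Cenpc1, which encodes the CENP-C scaffold that binds CENP-A nucleosomes, had 27.8, 22.2 and 26.5 CPM in the controls and 25.7, 16.9 and 23.8 CPM after Wt1 siRNA, and the groups overlapped (log2 fold change -0.20 ± 0.17, adjusted p = 0.459). Cenpt, a histone-fold protein that binds the NDC80 complex, had 13.3, 9.78 and 14.7 CPM in the controls and 11.0, 14.4 and 13.7 CPM after Wt1 siRNA. Its groups overlapped and its estimate of 0.05 ± 0.20 (adjusted p = 0.903) turned to -0.04 when libraries were scaled by size alone. Cenpw, the histone-fold partner of Cenpt, had 2.41, 1.20 and 2.07 CPM in the controls and 1.30, 1.23 and 1.19 CPM after Wt1 siRNA, and the lowest control lay within the knockdown range (log2 fold change -0.61 ± 0.47, adjusted p = 0.417). Cenpm, a pseudo-GTPase of the CENP-H, -I, -K group, had 2.90, 1.87 and 1.35 CPM in the controls and 2.16, 1.74 and 2.19 CPM after Wt1 siRNA, with overlapping groups (log2 fold change -0.01 ± 0.42, adjusted p = 0.990). Cenpm and Cenpw had the lowest control levels and the largest standard errors of all members, 0.42 and 0.47.

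In the NDC80 complex, which makes the main contact with microtubules, 3 of 4 subunits fell and the fourth did not. Ndc80 (gene ID 67052, chromosome 17, 71496100 to 71526857) had 23.5, 19.9 and 23.7 CPM in the controls and 8.74, 9.32 and 11.1 CPM after Wt1 siRNA, and Nuf2 (gene ID 66977, chromosome 1, 169497934 to 169531464) had 29.0, 32.7 and 38.9 CPM in the controls and 11.2, 15.3 and 15.1 CPM after Wt1 siRNA. Neither overlapped between groups, with log2 fold changes of -1.20 ± 0.16 (adjusted p = 4.81e-04) and -1.27 ± 0.17 (adjusted p = 3.81e-04). Spc25, of the dimer that anchors the complex to the kinetochore, fell 2.15-fold, from 28.6 ± 5.27 to 13.3 ± 2.49 CPM (adjusted p = 0.00158). Spc24, its partner in that dimer, had 4.75, 8.76 and 3.27 CPM in the controls and 5.88, 4.39 and 5.98 CPM after Wt1 siRNA. The controls of Spc24 spanned the knockdown libraries on both sides (log2 fold change -0.05 ± 0.33, adjusted p = 0.947). Ndc80 and Spc25 are among the members with a CHR in the bases after the start, and Nuf2 is not. Whether the change of Spc24 differed from that of Spc25 was not tested, and the ratio of the 2 genes overlapped between the groups.

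In the MIS12 complex, which joins the inner to the outer kinetochore, 2 of 4 subunits fell. Nsl1 had 12.2, 15.4 and 14.5 CPM in the controls and 7.48, 8.30 and 7.70 CPM after Wt1 siRNA. Dsn1, the subunit through which Aurora B controls the binding of the complex to CENP-C, had 13.5, 11.4 and 14.7 CPM in the controls and 6.17, 8.23 and 7.32 CPM after Wt1 siRNA. The groups of both were apart, with log2 fold changes of -0.84 ± 0.18 (adjusted p = 0.00664) and -0.86 ± 0.19 (adjusted p = 0.00904); without Wt1 library 4 the adjusted p of Dsn1 was 0.0557. Mis12 had 29.7, 30.5 and 31.8 CPM in the controls and 26.3, 17.2 and 22.9 CPM after Wt1 siRNA. Its groups did not overlap, yet its log2 fold change of -0.47 ± 0.16 did not pass (adjusted p = 0.0561). It passed at 0.0384 with library size scaling, 0.0398 with DESeq2, 0.0458 with limma-voom and 0.0466 without the filter on low counts. With any 1 library left out it did not pass (adjusted p of 0.0538 to 0.198). Pmf1 had 5.31, 3.73 and 2.74 CPM in the controls and 3.12, 2.68 and 3.13 CPM after Wt1 siRNA, with overlapping groups (log2 fold change -0.40 ± 0.32, adjusted p = 0.439).

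The KNL1 pair went in opposite directions. Knl1, the scaffold that recruits the BUB proteins (gene ID 76464, chromosome 2, 119047119 to 119110497), had 21.1, 13.1 and 25.3 CPM in the controls and 7.55, 4.24 and 9.86 CPM after Wt1 siRNA. It fell 2.74-fold without overlap (log2 fold change -1.45 ± 0.30, adjusted p = 0.00562). Zwint, the KNL1 partner that brings the ROD-ZW10-Zwilch (RZZ) complex to the kinetochore (gene ID 52696, chromosome 10, 72654846 to 72674964), had 162, 155 and 191 CPM in the controls and 223, 234 and 211 CPM after Wt1 siRNA. It rose 1.32-fold, from 169 ± 19.0 to 222 ± 11.7 CPM, with every knockdown library above every control (log2 fold change 0.40 ± 0.11, adjusted p = 0.0267), and did not pass with library size scaling (adjusted p = 0.0688). The call was also lost without control 1 (0.0770), control 2 (0.0597), Wt1 library 4 (0.108) or Wt1 library 5 (0.0909). Zwint was the most abundant member per kilobase of exons in the controls, at 45.4 ± 5.11 CPM per kilobase, and Knl1 was at 2.32 ± 0.722. The next in order were Spc25 at 18.0 ± 3.32, Bub3 at 17.4 ± 0.289, Cenpa at 12.7 ± 2.94 and Nuf2 at 12.1 ± 1.81 CPM per kilobase, where Spc25 and Bub3, and likewise Cenpa and Nuf2, did not differ beyond their SDs. Cenpw was lowest at 0.449 ± 0.148.

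The SKA complex, which keeps kinetochores on shortening microtubules, had 2 of 3 members lower. Ska1 had 4.75, 4.86 and 6.77 CPM in the controls and 1.49, 1.92 and 2.44 CPM after Wt1 siRNA, a 2.79-fold fall without overlap (log2 fold change -1.48 ± 0.31, adjusted p = 0.00669). Ska3 had 7.90, 5.49 and 11.9 CPM in the controls and 4.61, 4.35 and 4.16 CPM after Wt1 siRNA. It fell with a log2 fold change of -0.94 ± 0.28 (adjusted p = 0.0344), the highest adjusted p among the members that fell: limma-voom gave 0.0637, and the adjusted p was 0.0675 without control 1, 0.168 without control 3 and 0.0958, 0.0820 and 0.0804 without Wt1 libraries 4, 5 and 6. Ska2 had 28.5, 18.5 and 38.3 CPM in the controls and 20.0, 19.9 and 19.2 CPM after Wt1 siRNA. Control 2 lay below all 3 knockdown libraries, which were nearly equal, and Ska2 did not pass (log2 fold change -0.53 ± 0.21, adjusted p = 0.107). The adjusted p of Ska2 was 0.00627 without control 2 and 0.186 to 0.438 without any other library. Of the exon bases of Ska2, 10.8% are shared with Gm11491 on the other strand, so its reads may be mixed as well.

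Of the corona, the outer fibrous layer that forms on unattached kinetochores, the motor Cenpe and its partner Cenpf were both lower. Cenpe, a plus-end kinesin that carries chromosomes to the spindle equator (gene ID 229841, chromosome 3, 135212563 to 135273540), had 52.7, 49.6 and 58.7 CPM in the controls and 16.1, 18.1 and 24.8 CPM after Wt1 siRNA. Cenpf, a large protein that links kinetochores to dynein regulators (gene ID 108000, chromosome 1, 189640606 to 189688107), had 50.8, 41.7 and 57.8 CPM in the controls and 15.2, 20.3 and 19.5 CPM after Wt1 siRNA. Both fell 2.73-fold with no overlap between the groups (adjusted p = 1.64e-04 for Cenpe and 1.46e-04 for Cenpf). The RZZ complex recruits dynein and the MAD proteins. Its subunit Zwilch had 23.5, 17.3 and 25.9 CPM in the controls and 8.22, 8.84 and 14.3 CPM after Wt1 siRNA, and Spdl1, the dynein adaptor Spindly, had 16.1, 15.1 and 22.8 CPM in the controls and 8.93, 5.80 and 9.89 CPM after Wt1 siRNA. Both fell without overlap, with log2 fold changes of -1.08 ± 0.23 (adjusted p = 0.00648) and -1.13 ± 0.23 (adjusted p = 0.00559). Zw10, an RZZ subunit that also tethers vesicles at the endoplasmic reticulum, had 27.3, 13.3 and 19.5 CPM in the controls and 20.5, 19.4 and 25.8 CPM after Wt1 siRNA. The groups of Zw10 overlapped (log2 fold change 0.13 ± 0.23, adjusted p = 0.752).

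Of the 6 checkpoint genes, 4 fell. Bub1b, which encodes the BUBR1 subunit of the mitotic checkpoint complex (gene ID 12236, chromosome 2, 118598202 to 118641592), had 27.8, 21.6 and 28.3 CPM in the controls and 12.3, 11.8 and 14.2 CPM after Wt1 siRNA. Mad2l1, which encodes MAD2, the protein that captures the activator CDC20, had 37.1, 36.2 and 49.9 CPM in the controls and 20.6, 21.7 and 25.0 CPM after Wt1 siRNA. Neither overlapped, and the log2 fold changes were -1.02 ± 0.16 (adjusted p = 0.00109) and -0.87 ± 0.15 (adjusted p = 0.00222). Bub1, the kinase that marks centromeric histone H2A, also fell (20.0 ± 8.08 against 6.97 ± 2.47 CPM, 2.86-fold, adjusted p = 0.00619). Ttk, the MPS1 kinase that starts the signal, was at 16.6 ± 3.44 against 8.45 ± 2.49 CPM (log2 fold change -0.97 ± 0.24, adjusted p = 0.0135); the adjusted p was 0.0676 without control 3 and 0.0663 without Wt1 library 4. Bub3, the adaptor that holds BUB1 and BUBR1 on KNL1, had 76.2, 78.4 and 78.5 CPM in the controls and 59.7, 61.3 and 71.4 CPM after Wt1 siRNA. Its groups did not overlap, but the log2 fold change of -0.28 ± 0.11 did not pass (adjusted p = 0.103). Mad1l1, which encodes the MAD1 platform for MAD2, had 8.71, 13.9 and 5.86 CPM in the controls and 7.22, 8.92 and 6.82 CPM after Wt1 siRNA, with overlapping groups (log2 fold change -0.31 ± 0.28, adjusted p = 0.502). Both shugoshins, which shield centromeric cohesin until anaphase, fell. Sgo1 had 16.1, 12.4 and 15.8 CPM in the controls and 8.03, 4.93 and 6.73 CPM after Wt1 siRNA, and Sgo2a had 13.8, 13.0 and 17.4 CPM in the controls and 8.14, 5.29 and 8.32 CPM after Wt1 siRNA. The groups were apart in both, with log2 fold changes of -1.17 ± 0.22 (adjusted p = 0.00305) and -1.02 ± 0.22 (adjusted p = 0.00669). The value of Sgo2a is uncertain as far as reads could be split with the related gene Sgo2b, which had 0 to 51 counts a library.

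Within complexes, ratios between partners differed in how far they shifted. They are log2 ratios of levels per kilobase within each library, described without a test. Where a member that fell is set over a partner that did not pass, a shift largely restates those calls. Knl1 to Zwint was -4.14, -4.76 and -4.11 in the controls and -6.08, -6.98 and -5.62 after Wt1 siRNA, the widest shift of the 23 pairs compared. Zwilch to Zw10 was -0.26, 0.33 and 0.36 against -1.37, -1.18 and -0.90. Kntc1, which encodes ROD, the remaining RZZ subunit, kept its ratio to Zwilch within an overlapping range (-1.0 ± 0.03 against -1.09 ± 0.38), and the mean ratios of Zwilch and Kntc1 to Zw10 changed by -1.29 and -1.39. Cenph to Cenpo went from 2.0 ± 0.34 to 0.50 ± 0.45, and Bub1b to Bub3 from -1.31 ± 0.23 to -2.04 ± 0.05, without overlap in either. Ska3 to Ska2 held a narrow range in each group, -1.42 to -1.26 in the controls and -1.78 to -1.69 after Wt1 siRNA, although control 2 was low for both genes. Ndc80 to Spc24 was lower after Wt1 siRNA in every library, but the closest 2 libraries were at 1.24 and 1.14. Some pairs of a member that fell and a partner that did not pass overlapped between the groups. They were Spc25 to Spc24 (2.98 ± 0.81 and 1.82 ± 0.50), Dsn1 to Mis12 (-1.05 ± 0.17 and -1.42 ± 0.51), Nsl1 to Mis12 (-1.93 ± 0.15 and -2.27 ± 0.39) and Mad2l1 to Mad1l1 (0.58 ± 0.86 and -0.05 ± 0.30). The remaining such pairs did not overlap. Ratios between subunits that both fell overlapped between the groups: Nuf2 to Ndc80 (0.25 ± 0.24 and 0.18 ± 0.18), Dsn1 to Nsl1 (0.89 ± 0.31 and 0.86 ± 0.14), Cenpe to Cenpf (0.60 ± 0.12 and 0.58 ± 0.26) and Sgo1 to Sgo2a (0.45 ± 0.19 and 0.30 ± 0.15). Ska1 to Ska3 overlapped too, although its mean moved further, from -0.81 ± 0.35 to -1.43 ± 0.43.

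**Figure D4:**
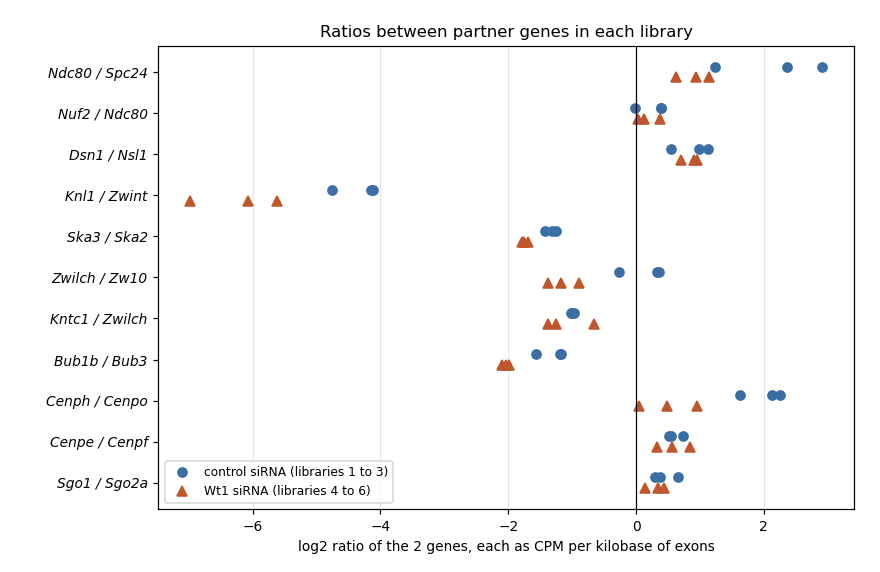
Log2 ratio of the levels per kilobase of exons of 11 pairs of partner genes in each control siRNA library (circles) and each Wt1 siRNA library (triangles). The Knl1 to Zwint ratio moves from -4.34 ± 0.37 to -6.23 ± 0.70 (mean and SD of 3 libraries), while Nuf2 to Ndc80 and Cenpe to Cenpf overlap.

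Some libraries were often the highest or lowest of their group. Over all 43 members control 3 was the highest control in 31 and control 2 the lowest in 26, while Wt1 library 6 was the highest of its group in 24 and Wt1 library 4 the lowest in 20 and the highest in 10. Of the 24 members that fell, control 3 was the highest control in 21 and control 2 the lowest in 16. On the other side Wt1 library 6 was the highest in 16 and Wt1 library 4 the lowest in 16. Since the members share the libraries, their separations are not independent of each other. The median log2 level relative to the control mean over these 24 was -0.07, -0.20 and 0.22 in the controls and -1.36, -1.24 and -1.01 after Wt1 siRNA.

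Genes that work with the kinetochore but are not among the 43 gave a mixed picture. For comparison, 10.3% of all tested genes were called lower and 9.05% higher. Of 18 other centromere and kinetochore genes 7 fell and 2 rose, with a median log2 fold change of -0.18. Knstrn (kinastrin, a spindle and kinetochore adaptor) fell with a log2 fold change of -1.35 ± 0.19 (adjusted p = 5.58e-04), and Kntc1 with -1.20 ± 0.19 (adjusted p = 0.00123). The next list held 18 genes of the anaphase-promoting complex (the ubiquitin ligase that the checkpoint restrains), its activators and conjugating enzymes. Of these 3 fell and 0 rose, with a median of -0.17. The 2 with the smallest p were the ubiquitin-conjugating enzyme Ube2c (-1.02 ± 0.17, adjusted p = 0.00132) and the activator Cdc20 (-1.18 ± 0.20, adjusted p = 0.00158). Cdc27 was the core subunit that fell (-0.54 ± 0.15, adjusted p = 0.0295), although its groups overlapped. Of 15 genes of cohesin and its release 5 fell and 1 rose, with a median of -0.33. Securin (Pttg1) fell with -1.25 ± 0.18 (adjusted p = 6.49e-04) and sororin (Cdca5) with -0.97 ± 0.19 (adjusted p = 0.00451). The 3 that rose were Bod1 (0.47), Ndel1 (0.37) and Esco1 (0.43), and 0 of the 3 lists' genes rose with library size scaling. Without control 3 the 15 falls became 9 and the rises 0, without Wt1 library 4 or 5 the rises were 0, and without Wt1 library 6 the rises were 1.

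**Figure D5:**
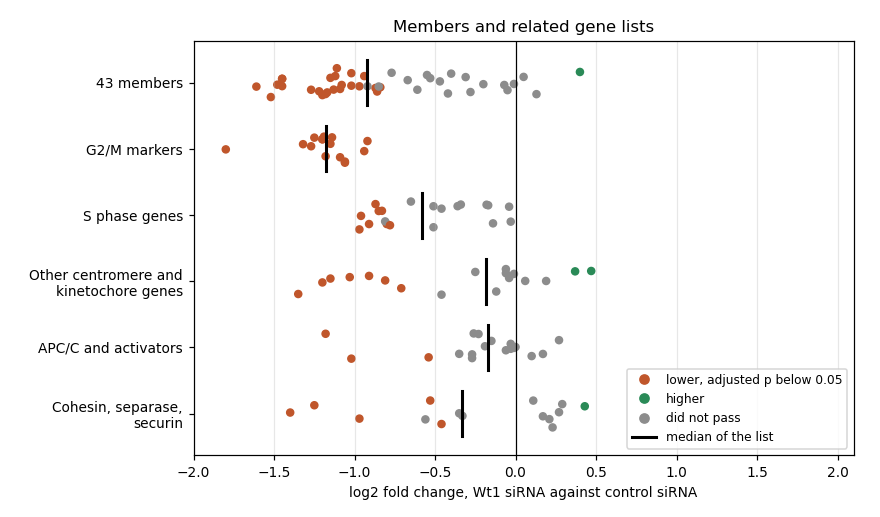
Log2 fold change (Wt1 siRNA against control siRNA) of each gene in the list of 43 members and in 5 related lists, with the median of each list as a bar. The members' median is -0.92, between -1.18 for the G2/M markers and -0.58 for the S phase genes, and the other 3 lists have medians of -0.33 to -0.17.

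Markers of the cell cycle phases moved as well, where 10.3% of all tested genes were called lower. All 15 G2/M markers that are not members fell (median log2 fold change -1.18; smallest p: Mki67, -1.80 ± 0.20, adjusted p = 1.72e-04, and Top2a, -1.14 ± 0.13, adjusted p = 1.78e-04), and 8 of 20 S phase genes fell (median -0.58; smallest p: Rrm1, -0.87 ± 0.13, adjusted p = 8.47e-04, and Mcm3, -0.80 ± 0.14, adjusted p = 0.00192). The summed members without Zwint, divided by the summed G2/M markers, both as CPM, were at 0.806, 0.769 and 0.727 in the controls and 1.02, 0.978 and 0.926 after Wt1 siRNA. Divided by the S phase genes, they were at 1.22, 1.19 and 1.12 against 1.04, 0.976 and 1.0. The groups overlapped in neither ratio. The means of the sums were lower by 1.76-fold for the members without Zwint and by 1.43-fold for all 43. They were lower by 2.24-fold for the G2/M markers and by 1.51-fold for the S phase genes, so the order depends on leaving Zwint out. The part of the cell cycle markers in the members' falls was not tested.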

How the data were processed

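RNA of 6 libraries was measured by RNA-seq: 3 after control siRNA and 3 after Wt1 siRNA, grouped and numbered by the sample titles. The authors deposited 1 table of raw read counts per gene for all 6 libraries (24061 Entrez gene IDs, not normalized). Of tools, bcl2fastq, CASAVA 1.8, TopHat and DESeq are listed in the submitters' processing notes, with the build mm10 (GRCm38) and without their roles. The sources used here do not give the counting tool, its annotation or its strand setting. Symbols were matched through RefSeq and GENCODE tables, and 85 IDs without a symbol stayed in the tests.

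Counts were tested with edgeR 4.0.16 (quasi-likelihood F test, R 4.3.3) with TMM factors and filterByExpr (14190 genes kept), siRNA group as the only term, and Benjamini-Hochberg adjustment over all genes kept, at 0.05. The biological coefficient of variation shared by all genes was 0.191. CPM divides by the counts of the kept genes times the TMM factor. The standard error is the absolute log2 fold change over the square root of F. Levels between genes are per kilobase of merged exons of protein-coding transcripts (GENCODE M21 basic, GRCm38). Promoters are those of RefSeq GRCm38.p6. Library pairs within a group differed by chi-square values of 18.9 to 70.9 per degree of freedom, so none was a library deposited more than once.

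The members and gene lists were chosen with earlier results of these data known. By the naming rule, values per library are given, in each role group, for the 2 members with the smallest p, the member with the smallest absolute log2 fold change and every member that did not pass. Each related and cycle list is represented by the 2 genes with the smallest p. Bod1, Ndel1, Esco1, Cdc27 and the named fibroblast and macrophage markers were named after their values were seen. The fit was tested on simulated counts for this comparison (14190 genes, 3 simulations with 200 genes changed). It called 32.3% of 1.5-fold, 66.2% of 2-fold and 88.9% of 4-fold changes. Of its calls 7.65% were false, above the threshold of 0.05. In the data 2743 genes were called, against 200 changed in each simulation, so these rates need not hold for the data. The alternatives tried were library size scaling, DESeq2 1.42.0, limma-voom (limma 3.58.1), robust shrinkage, no filter, a filter of 1 CPM in 3 libraries, each library left out, and other promoter windows.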

Additional observations from a re-analysis of the deposited data

How the results depend on the processing

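The count of 24 lower members was 24 to 26 under the 6 other settings of scaling, tool and filter, and 21 to 28 when 1 library was left out; 21 of the 24 were lower under every one of these 12 alternatives, and the exceptions were Dsn1, Ttk and Ska3. The count of 1 higher member (Zwint) was 0 with library size scaling and 0 to 1 when 1 library was left out. The related centromere, anaphase-promoting complex and cohesin genes were 15 lower and 3 higher; leaving out 1 library gave 9 to 15 lower and 0 to 2 higher, and library size scaling 0 higher. Values near 0 changed sign: Cenpm to 0.02 and Spc24 to 0.06 with limma-voom, and Cenpt to -0.04 with library size scaling. With 1 library left out, log2 fold changes ran from -0.23 to 0.34 for Cenpm, -0.20 to 0.04 for Cenpo, -0.10 to 0.17 for Cenpt, -0.32 to 0.43 for Spc24, -0.09 to 0.42 for Zw10 and -0.56 to 0.07 for Mad1l1. The cause was not tested. Of the 44 promoters, TTTGAA was in 18, in 8 counting only the 250 bases before the start, and in 10 counting only the 50 bases after it, a window added after the data were seen. In that last window TTTAAA was in 3, CCAAT in 8, the E2F forms in 1 and the WT1/EGR forms in 0. No paired analysis was possible because the controls are numbered 1 to 3 and the Wt1 siRNA libraries 4 to 6, so that the groups share no number. Standard errors tended to be larger in weakly expressed members, up to 0.47 on the log2 scale, and the part of depth in this was not tested. The 3 libraries per group, with no label of culture, animal or batch, limit all results.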

Other observations

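Several members share a start region with a neighbour transcribed the other way, and these neighbours, chosen after their values were seen, did not always get the same call as the member. A different call is not by itself a different change. Prr11, a gene of late cell cycle stages whose start lies 547 bases from that of Ska2, fell from 35.9 ± 8.34 to 17.8 ± 1.51 CPM (SD, n = 3 libraries each; log2 fold change -1.01 ± 0.17, adjusted p = 0.00159 by edgeR), while Ska2 did not pass (-0.53 ± 0.21, adjusted p = 0.107). Nusap1, which encodes a spindle protein and overlaps the first bases of Oip5, fell from 22.4 ± 4.49 to 9.70 ± 1.90 CPM (-1.20 ± 0.20, adjusted p = 0.00161), while Oip5 did not pass (-0.85 ± 0.32, adjusted p = 0.0842). In the opposite arrangement Ska3 fell (-0.94 ± 0.28, adjusted p = 0.0344), and Mrpl57, a mitochondrial ribosome gene that starts 76 bases away, was at 13.0 ± 1.78 and 13.1 ± 1.82 CPM (0.02 ± 0.18, adjusted p = 0.962). Cenpn fell (-1.15 ± 0.22, adjusted p = 0.00368), and Cmc2, with a start 304 bases away, did not pass (-0.32 ± 0.23, adjusted p = 0.381). Whether the change of a member differed from that of its neighbour was not tested.

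The other neighbours also did not pass. Nol8, 347 bases from Cenpp, had a log2 fold change of -0.10 ± 0.13 (adjusted p = 0.674 by edgeR), and Nudt1, 70 bases from Mad1l1, had -0.24 ± 0.34 (adjusted p = 0.682). Derl2, which overlaps the first bases of Mis12, had 0.20 ± 0.12 (adjusted p = 0.286), and Ppwd1, which overlaps those of Cenpk, had 0.38 ± 0.17 (adjusted p = 0.139).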
